A study of Mus musculus with 6 samples.

Results

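The genes described here encode the machinery that brings proteins into mitochondria and folds or trims them there. They were chosen by name: every protein-coding gene whose symbol starts with Timm or Tomm, and 14 named partners (Samm50, Pam16, Dnajc15, Dnajc19, Grpel1, Grpel2, Hspa9, Hspd1, Hspe1, Chchd4, Pmpca, Pmpcb, Clpp and Lonp1). The rule found 40 genes of the 35498 with values, 26 of them by the start of the symbol. Poly-A RNA was sequenced from the ventricle beneath the coronary ligature of C57BL/6J mice, 8 to 10 weeks old, 7 days after myocardial infarction. The transgene Postn CreER+/- was present in every mouse; it places an inducible Cre recombinase under control of the periostin gene, which activated fibroblasts express. Tamoxifen, which activates this Cre, was in the diet of every mouse from surgery to collection. The CTL group (n = 3) had the genotype Runx1 WT, and in the Runx1_FB_KO group (n = 3) the conditional allele Runx1 fl took its place. The sexes were unequal between the groups. CTL replicates 1, 2 and 3 were female, male and male. Runx1_FB_KO replicates 1, 2 and 3 were male, female and female. The recombinase acts in periostin-expressing cells, whereas the RNA came from all cells of the tissue.

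Nearly all mitochondrial proteins are encoded in the nucleus and made in the cytosol. They enter through the TOM complex of the outer membrane and are then sorted: to the outer membrane by SAM, to the intermembrane space by the Chchd4 system, to the inner membrane by TIM22, and to the matrix by TIM23 with the Hspa9 motor. In the matrix the targeting sequence is cut off, the chaperonin Hspd1 with its lid Hspe1 helps folding, and the proteases Lonp1 and Clpp remove damaged proteins. Heart muscle cells are densely packed with mitochondria.

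The libraries held 16598561 to 19987279 estimated reads, and Runx1_FB_KO replicate 3 stood nearer to the CTL libraries than the other knockout libraries did. Runx1, the targeted gene, was at 96.4, 86.9 and 85.5 CPM (read counts set relative to library size, after scaling by the trimmed mean of M values, TMM) in CTL and at 17.5, 10.9 and 67.4 CPM in Runx1_FB_KO replicates 1, 2 and 3. Its log2 fold change was -1.48 (SE 0.63, adjusted p = 0.154, edgeR), and -2.61 without Runx1_FB_KO replicate 3. Markers of some cell types also differed between the groups: 15 of 15 cardiomyocyte markers were higher in each knockout library than in any CTL library, with a summed level of 15119 to 19488 CPM in CTL and 36855 to 130240 CPM in knockout. The mean log2 level of those markers stood 2.62, 2.93 and 1.19 above CTL in knockout replicates 1, 2 and 3. Markers of activated fibroblasts stood at -2.04, -2.32 and -0.16, and macrophage markers at -1.55, -1.64 and -0.23. No marker of these 3 lists was at 0 in all libraries. The 6 endothelial markers had a median log2 fold change of -0.02, with 1 separating the groups upward and 1 downward. The 4 tested lymphocyte markers had a median of -2.33, with 2 separating the groups downward. The 3 neutrophil markers had a median of -0.91, with 1 downward. No adipocyte, erythroid or proliferation marker separated the groups. Over all genes tested, 20.2% separated the groups upward and 18.8% downward. Mitochondrially encoded transcripts made up 5.36% to 7.11% of reads in CTL and 10.37% to 24.49% in knockout.

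Transcripts for mitochondrial import were mostly at higher levels in the knockout libraries on the TMM scale, although no single gene passed the test. On deposited TPM, described further on, 20 members were higher and 18 lower. Among all genes tested, 2237 were higher and 12000 lower on that scale. Of the 38 members with enough reads to test, 34 had a positive log2 fold change and 4 a negative one, with a median of 0.81 and a range of -0.15 to 1.69; the median over all 14237 genes tested was -0.06. With edgeR, 0 members had an adjusted p under 0.05, as did 0.0% of all genes tested, and the smallest adjusted p of any gene was 0.0682. At an unadjusted p under 0.05, 28 members were higher and 0 lower, against 19.3% of all genes higher and 13.1% lower. In 24 members the lowest knockout library lay above the highest CTL library, and in 0 members the reverse held, against 20.2% and 18.8% of all genes. DESeq2 called 24 members higher and 0 lower (14.8% of all genes higher and 5.17% lower), and limma-voom called 0. Without Runx1_FB_KO replicate 3, edgeR called 31 of 38 members higher and 0 lower, where it called 25.1% of all genes higher and 22.5% lower.

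**Figure D1:**
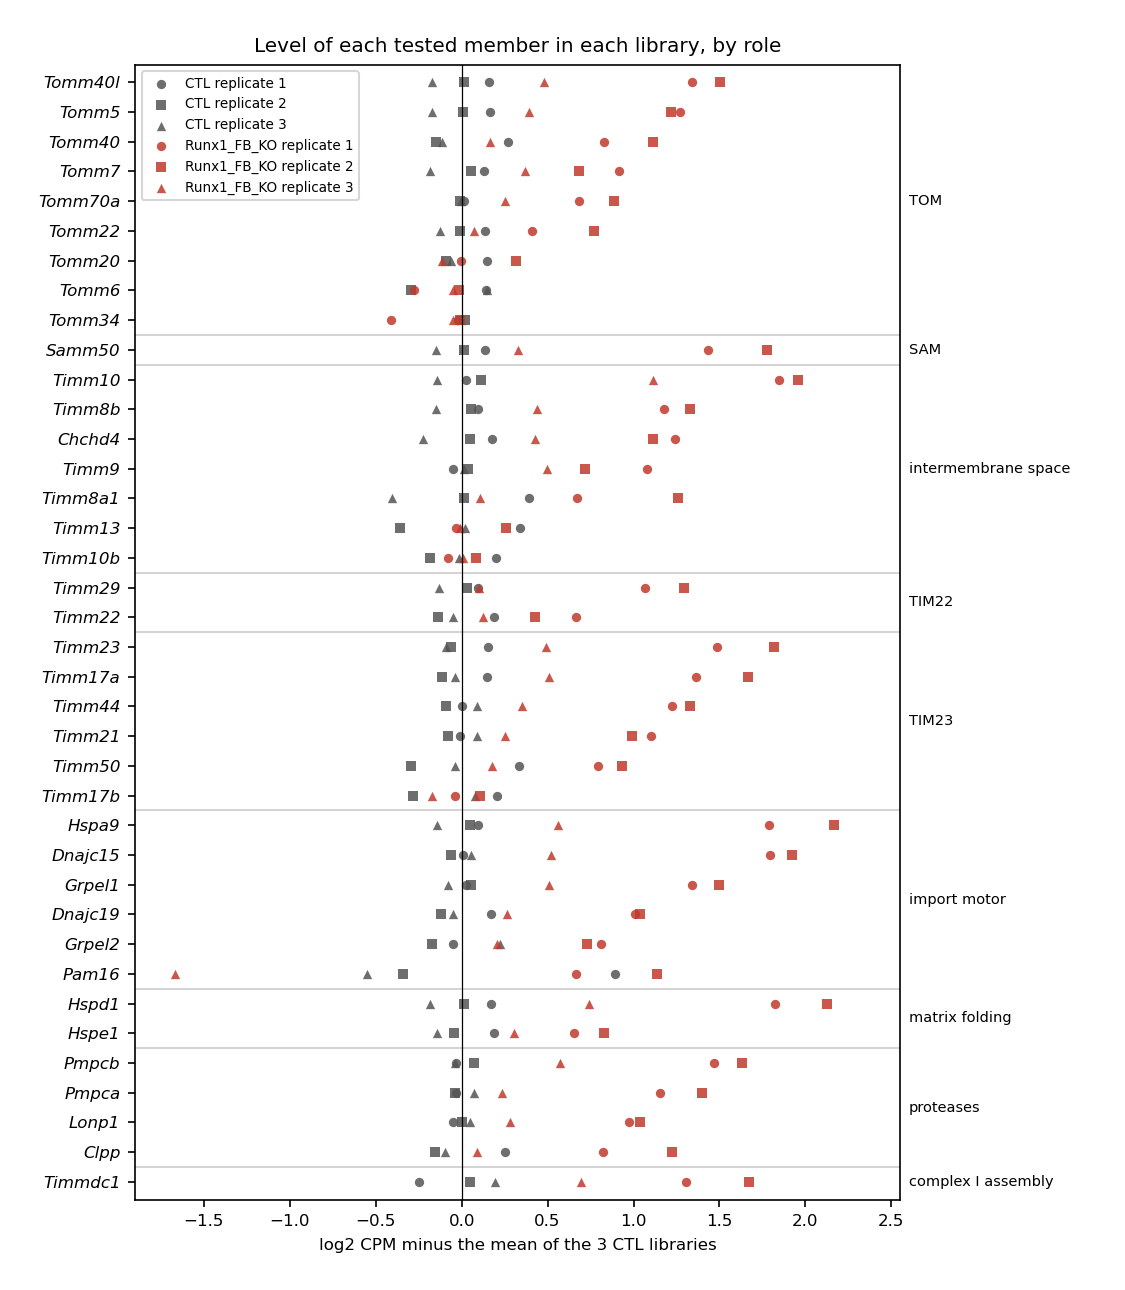
Level of each of the 38 tested members in each library, as log2 CPM minus the mean of the CTL libraries, with genes grouped by role. Grey symbols are CTL and red symbols Runx1_FB_KO; knockout replicates 1 and 2 lie to the right for most genes (medians 1.04 and 1.13) and replicate 3 lies between them and CTL (median 0.27). Values are on the TMM scale; with library size alone 9 of the 38 fold changes were negative.

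The import genes tracked the library as well as the group. The median over the 38 members, as log2 CPM minus the CTL mean, was 0.14, -0.02 and -0.05 for the CTL libraries, and 1.04, 1.13 and 0.27 for knockout replicates 1, 2 and 3. Knockout replicate 3 was the lowest of its group, as it was for the cardiomyocyte markers and for the share of mitochondrially encoded reads. With the cardiomyocyte marker level as a covariate, the median fold change of the members was -0.20, with 6 positive and 32 negative, and 0 were called; the marker level itself does not overlap between the groups. In this bulk tissue, more heart muscle cells in the sample and more of these transcripts per cell cannot be told apart. Leaving the mitochondrially encoded genes and globins out of the fit gave a median of 0.81.

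The direction also depends on how libraries are made comparable. Scaling by library size alone moved the median of all genes to -0.52 and that of the members to 0.29, with 29 positive and 9 negative. On the deposited TPM, a length-corrected abundance that sums to the same total in each library, the median log2 ratio of group means was 0.08 for the members and -0.74 for all genes tested. On that scale 12 members lay wholly above CTL and 3 wholly below (Tomm20, Tomm34 and Timm10b), against 7.2% and 46.6% of all genes. Overlap between groups is given below on the TMM scale unless TPM is named. Chchd4, Dnajc15, Dnajc19, Hspe1, Lonp1, Pmpca, Samm50, Timm21, Timm29, Timm9, Tomm7 and Tomm70a separate the groups upward on the TMM scale but overlap in TPM. Set against the median of all genes, the members stood 0.87 higher with TMM, 0.81 higher with library size alone and 0.82 higher in TPM.

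Promoter sequence was examined because many members were higher together. A window from 250 bases before to 50 bases after the start site was on hand for 35 of the 40 members (RefSeq, GRCm38.p6), not for Grpel2, Hspa9, Timm21, Tomm40l and Tomm7. The letters CCGGAAG are the core bound by ETS factors such as GABP, a known regulator of nuclear genes for mitochondrial proteins. On either strand they occurred in 16 of the 35 members (45.7%). They occurred in 9.93% of all 27025 genes with a window and in 18.8% of the 10848 tested genes with a window. A gene can have several start sites, and it was counted if any of its windows held a match. AAGGTCA, the motif of the estrogen-related receptors, occurred in 5 members (14.3%, against 5.38% of all genes with a window and 3.91% of tested genes with a window). The palindromic motif of NRF1 occurred in 5 (14.3%, against 5.19% and 10.8%). The heat shock element GAANNTTC occurred in 3 members (8.57%, against 9.04% and 7.03%), and TGTGGT, a core bound by RUNX factors, in 3 (8.57%, against 18.9% and 15.2%). Hspd1 and Hspe1 share the stretch that holds their ETS, estrogen-related receptor and heat shock matches, so each match there is counted for both genes. A match of letters is a description and not a bound site.

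The following 30-base stretches show the ETS core, in capitals, before the start sites that RefSeq gives for members with large, moderate and no differences; each is written 5′ to 3′ on the strand of the gene, and CTTCCGG is the core read on the other strand.
Timm10, chr2:84826991-84827020, plus strand: ctggtcggcgttttCTTCCGGatcaaagaa
Timm23, chr14:32201920-32201949, minus strand: cgcgcttcccaCTTCCGGgccgcacacagc
Pmpcb, chr5:21737130-21737159, plus strand: cctggagtcatgacCCGGAAGtacatctcc
Pmpca, chr2:26389284-26389313, plus strand: ggctcggcgggCCGGAAGccagcgccgaac
Grpel1, chr5:36464970-36464999, plus strand: cacctcctcacCTTCCGGggctcccagaag
Tomm22, chr15:79670810-79670839, plus strand: agcccggctcgCTTCCGGAAGacgctctgt
Tomm34, chr2:164071190-164071219, minus strand: ttgagcccactCTTCCGGccgcttagctcc
In the GENCODE annotation, which gives the gene positions printed here, Timm10 and Pmpcb start further upstream, and their cores lie just inside the gene. In Tomm22 the core and its reverse complement overlap and form a palindrome. The core was present in members with and without a difference between groups: the 15 tested members that hold it had a median log2 fold change of 1.01 (-0.15 to 1.69), and the 18 tested members whose window lacks it had a median of 0.77 (-0.12 to 1.54).

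At the outer membrane, the TOM genes split on the TMM scale into a part that was higher and a part that was not. Of its 9 tested members, 5 were higher at an unadjusted p under 0.05 and 0 lower, against 19.3% and 13.1% of all genes. The median log2 fold change was 0.63. Tomm40l, a close relative of the channel protein Tomm40, was at 30.8, 27.8 and 24.5 CPM in CTL and at 70.0, 78.2 and 38.4 CPM in knockout. Its groups do not overlap (log2 fold change 1.17, SE 0.27, adjusted p = 0.0682). Tomm5, a small subunit that supports the channel, was at 28.5, 25.7 and 22.6 CPM in CTL and at 61.7, 59.6 and 33.5 CPM in knockout, again without overlap (log2 fold change 1.01, SE 0.25). Tomm7, another small subunit, went from 31.2, 29.6 and 25.0 CPM to 53.9, 45.8 and 36.8 CPM (log2 fold change 0.67, SE 0.18). Tomm70a, the receptor for carrier proteins, had a fold change of 0.63 (SE 0.19) and non-overlapping groups. In deposited TPM the groups of Tomm40l and Tomm5 stayed apart. Those of Tomm7 and Tomm70a overlapped there, with log2 ratios of group means of -0.05 and -0.11.

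The other TOM genes overlapped between groups on the TMM scale. In deposited TPM, Tomm20 and Tomm34 lay wholly below CTL. Tomm40, the channel itself, was at 46.5, 34.8 and 35.7 CPM in CTL and at 68.6, 83.9 and 43.4 CPM in knockout, where replicate 3 lay below the highest CTL library. Tomm20, the receptor for targeting sequences, stood at 108.8, 92.1 and 94.0 CPM in CTL and at 97.9, 122.2 and 90.7 CPM in knockout. That is a log2 fold change of 0.08 (SE 0.17), which turned to -0.41 with library size alone. Tomm6, a small subunit that stabilises the complex, was at 43.4, 32.1 and 43.6 CPM in CTL and at 32.5, 38.9 and 38.03 CPM in knockout (log2 fold change -0.12, SE 0.17). Tomm34, a cytosolic partner of heat shock proteins rather than part of the channel complex, was at 23.3, 24.02 and 23.6 CPM and at 17.7, 23.5 and 22.9 CPM (log2 fold change -0.15, SE 0.16). Tomm22, the central receptor, had a fold change of 0.44 (SE 0.20). Tomm20l, a relative of Tomm20, was too low to test, at no more than 0.262 CPM in any library. Samm50, the core of the SAM complex, was at 97.6, 89.6 and 80.2 CPM in CTL and at 240.4, 305.1 and 111.4 CPM in knockout. Its groups do not overlap (log2 fold change 1.30, SE 0.36, adjusted p = 0.0819).

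In the intermembrane space, Timm10 had the highest fold change and the smallest unadjusted p of the 38 tested members. Timm10 (ENSMUSG00000027076, GRCm38 chromosome 2, 84826997 to 84830213, plus strand) forms with Timm9 the small chaperone that carries hydrophobic proteins across this space. It was at 9.07, 9.64 and 8.06 CPM in CTL and at 32.2, 34.8 and 19.3 CPM in knockout, so that even replicate 3 was above every CTL library (log2 fold change 1.69, SE 0.25, unadjusted p = 0.000282, adjusted p = 0.0682). Its partner Timm9 had a log2 fold change of 0.79 (SE 0.21), also without overlap. Timm8b, a small chaperone of the same family, went from 24.9, 24.2 and 21.1 CPM to 53.0, 58.8 and 31.7 CPM (log2 fold change 1.03, SE 0.24). Chchd4, the oxidoreductase that traps small proteins in this space by disulfide bonds, went from 14.9, 13.6 and 11.2 CPM to 31.2, 28.5 and 17.7 CPM (log2 fold change 0.96, SE 0.25).

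In 3 other small TIM genes the groups overlapped. Timm10b, a family member that sits on the TIM22 complex, was at 28.5, 21.8 and 24.6 CPM in CTL and at 23.5, 26.3 and 25.0 CPM in knockout, with a fold change of -0.0016 on the log2 scale (SE 0.16). Timm13, the partner of the Timm8 proteins, had a log2 fold change of 0.05 (SE 0.21), which was -0.43 with library size alone. Timm8a1 overlapped between groups, at 11.4, 8.75 and 6.51 CPM in CTL and at 13.9, 20.8 and 9.34 CPM in knockout (log2 fold change 0.72, SE 0.35); without Runx1_FB_KO replicate 3 it passed the test (log2 fold change 1.01, adjusted p = 0.0228). Timm8a2 had 0 TPM in all 6 libraries and was not tested; 0 reads in a library allow a level of up to 3 reads, for counting error alone.

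At the inner membrane, the matrix route was represented by 6 TIM23 genes. Of these, 5 were higher at an unadjusted p under 0.05, against 19.3% of all genes. Timm23, which with Timm17 forms the core of the translocase, was at 80.4, 69.4 and 67.8 CPM in CTL and at 202.6, 254.7 and 101.7 CPM in knockout (log2 fold change 1.36, SE 0.33, adjusted p = 0.0705). Timm17a, the other core subunit, went from 52.7, 44.0 and 46.2 CPM to 122.3, 150.7 and 67.6 CPM (log2 fold change 1.25, SE 0.29). Timm44, which ties the motor to the channel, went from 36.0, 33.8 and 38.4 CPM to 84.1, 90.5 and 46.0 CPM (log2 fold change 1.03, SE 0.26). The groups do not overlap for any of these 3 genes. Timm21 and the receptor Timm50 had fold changes of 0.83 (SE 0.24) and 0.65 (SE 0.25), the latter with overlap. Timm17b, the X-linked counterpart of Timm17a, was at 22.4, 15.9 and 20.4 CPM in CTL and at 18.9, 20.8 and 17.2 CPM in knockout (log2 fold change -0.05, SE 0.19).

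The carrier route was represented by 2 genes of TIM22. Timm29, a subunit of TIM22 found in animals, was at 41.3, 39.5 and 35.3 CPM in CTL and at 80.9, 95.02 and 41.5 CPM in knockout, with replicate 3 just above the highest CTL library (log2 fold change 0.90, SE 0.30). Timm22, the channel, went from 20.6, 16.4 and 17.5 CPM to 28.7, 24.4 and 19.8 CPM, with overlap (log2 fold change 0.42, SE 0.19). With library size alone the value for Timm22 was -0.08. Timmdc1, which shares the symbol start but assembles respiratory complex I, was at 11.3, 13.9 and 15.4 CPM in CTL and at 33.3, 42.9 and 21.8 CPM in knockout (log2 fold change 1.27, SE 0.27).

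The import motor had 6 members. In 4 of them the groups do not overlap, with knockout above CTL, as in 20.2% of all genes. Hspa9, the matrix Hsp70 that pulls proteins in, was the most highly read member, at 225.9, 218.2 and 190.9 CPM in CTL and at 729.2, 946.7 and 311.2 CPM in knockout (log2 fold change 1.65, SE 0.41, adjusted p = 0.0714). The mean knockout level was 3.13-fold the CTL level, and knockout replicate 3 was well below replicates 1 and 2. Dnajc15, a J protein that stimulates Hspa9, went from 18.5, 17.7 and 19.2 CPM to 64.4, 70.3 and 26.5 CPM (log2 fold change 1.54, SE 0.35). Dnajc19, the related J protein, went from 18.5, 15.1 and 15.9 CPM to 33.1, 33.8 and 19.7 CPM (log2 fold change 0.81, SE 0.24). The nucleotide exchange factor Grpel1 went from 36.2, 36.9 and 33.7 CPM to 90.0, 100.6 and 50.6 CPM (log2 fold change 1.18, SE 0.26). Its relative Grpel2 was at 14.1, 12.9 and 17.1 CPM in CTL and at 25.6, 24.2 and 16.8 CPM in knockout, with overlap (log2 fold change 0.60, SE 0.22).

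Pam16, a J-like protein that restrains the motor, could not be read reliably as a single gene. It was at 10.4, 4.37 and 3.78 CPM in CTL and at 8.90, 12.4 and 1.68 CPM in knockout (log2 fold change 0.30, SE 0.71). The annotated gene Gm9803 matches 534 bases of Pam16 at 100% identity, and the deposited estimates gave it 70, 101 and 151 reads in CTL and 232, 270 and 238 reads in knockout. With the reads of both genes added, the level was 13.6, 8.88 and 11.3 CPM in CTL and at 24.1, 33.5 and 13.8 CPM in knockout, and knockout replicate 3 lay just above the highest CTL library (log2 fold change 1.08, SE 0.34, adjusted p = 0.0981). Adding the reads of near-identical copies to Timm10b, Tomm6 and Timm8a1 gave -0.00055, -0.14 and 0.76. In addition, 20 of the 40 members overlap another annotated gene, mostly on the opposite strand, and the sources used here do not give whether the libraries keep strand.

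The folding chaperones Hspd1 and Hspe1 lie head to head on chromosome 1 and work as partners, yet their differences were unequal. Hspd1 (ENSMUSG00000025980, GRCm38 chromosome 1, 55077835 to 55088243, minus strand), the barrel-shaped chaperonin, was at 111.2, 99.4 and 86.6 CPM in CTL and at 349.4, 430.0 and 164.7 CPM in knockout (log2 fold change 1.67, SE 0.36, adjusted p = 0.0682). Hspe1 (ENSMUSG00000073676, chromosome 1, 55088132 to 55091307, plus strand), the lid of the barrel, was at 63.0, 53.7 and 50.2 CPM in CTL and at 87.3, 98.6 and 68.3 CPM in knockout (log2 fold change 0.61, SE 0.18, adjusted p = 0.0940). On the TMM scale the groups do not overlap for either gene. In deposited TPM the groups of Hspe1 overlap, with means of 184.7 in CTL and 170.4 in knockout. With library size alone the log2 fold change of Hspe1 was 0.11. For Hspd1 the groups stay apart in TPM, and the log2 fold change with library size alone was 1.11. Their annotated bodies overlap by 112 bases. Beside that overlap lie 3 motif matches, before the start of Hspe1. By the GENCODE positions printed here they lie inside Hspd1, and before the start site that RefSeq gives for it. The matches are printed in capitals, on the strand of Hspe1.
ETS core palindrome, chr1:55088057-55088086: cgttctagaacCTTCCGGAAGgccccgcgc
heat shock element, chr1:55088053-55088082: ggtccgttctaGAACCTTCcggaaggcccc
estrogen-related receptor motif, chr1:55088089-55088118: cccgtgggtgaAAGGTCAagtggcgtcatt
The heat shock element and the ETS core share bases. As the region serves both genes, these matches are common to Hspd1 and Hspe1 although the fold changes of the genes differ.

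The proteases of the matrix were all 4 higher at an unadjusted p under 0.05, against 19.3% of all genes. Pmpcb, the catalytic subunit of the peptidase that cuts off targeting sequences, was at 50.4, 54.2 and 50.2 CPM in CTL and at 142.7, 160.2 and 76.7 CPM in knockout (log2 fold change 1.29, SE 0.28). Pmpca, the subunit that binds the targeting sequence, went from 78.7, 78.6 and 84.7 CPM to 179.4, 212.8 and 95.1 CPM (log2 fold change 1.01, SE 0.30). Both genes separate the groups on the TMM scale, and in deposited TPM Pmpcb alone does. Lonp1, the main protease of the matrix for damaged proteins, went from 87.8, 91.2 and 94.0 CPM to 179.0, 186.9 and 110.4 CPM, without overlap on the TMM scale (log2 fold change 0.80, SE 0.23). In deposited TPM the groups of Lonp1 overlap. Clpp, the proteolytic chamber of the ClpXP protease, was at 22.3, 16.8 and 17.5 CPM in CTL and at 33.2, 43.9 and 19.9 CPM in knockout (log2 fold change 0.78, SE 0.30), where replicate 3 lay below CTL replicate 1.

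**Figure D2:**
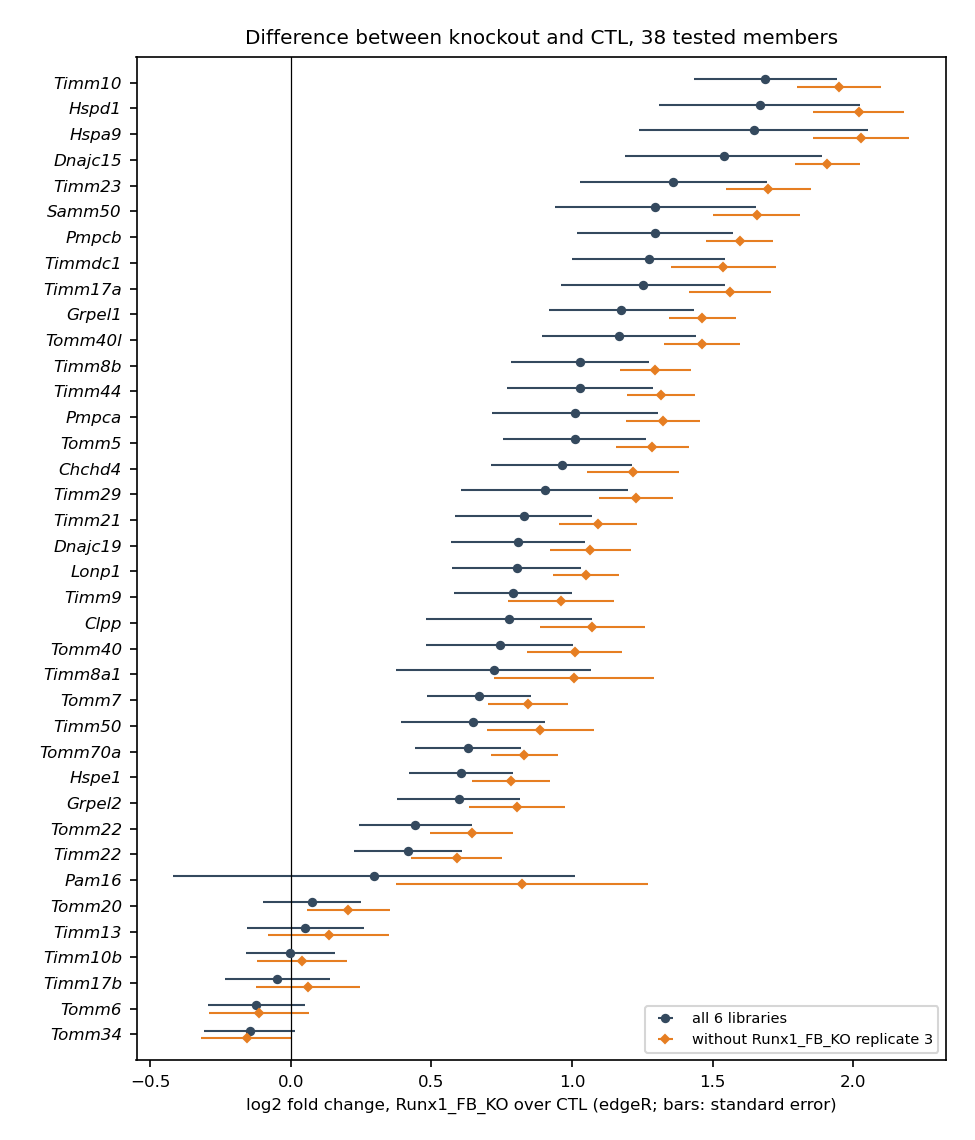
Log2 fold change of Runx1_FB_KO over CTL for the 38 tested members (TMM scale, bars: standard error), with all 6 libraries and without Runx1_FB_KO replicate 3. Timm10, Hspd1 and Hspa9 head the order at 1.69, 1.67 and 1.65, and Tomm34, Tomm6, Timm17b and Timm10b end it below 0; the order of Timm10 and the genes next to it is within their standard errors. With library size alone 9 of the 38 values were negative.

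Ratios between partner genes do not depend on how libraries are scaled, so 9 pairs were compared as the share of the first gene in the pair's summed TPM, a scale per transcript length. Timm10 made up 19.1%, 25.1% and 20.1% of Timm10 plus Timm10b in CTL and 48.9%, 48.9% and 37.5% in knockout (21.4% ± 3.23 against 45.1% ± 6.59, SD, n = 3; exact two-sided permutation p = 0.1). Hspd1 made up 29.2%, 30.4% and 29.6% of Hspd1 plus Hspe1 in CTL and 49.9%, 51.7% and 37.4% in knockout (29.7% ± 0.613 against 46.3% ± 7.75, SD, n = 3; exact p = 0.1). The chaperonin transcript was thus the minor partner in every CTL library and close to parity in knockout replicates 1 and 2. Timm17a made up 82.4%, 85.3% and 75.6% of Timm17a plus Timm17b in CTL and 92.2%, 93.0% and 85.6% in knockout. Grpel1 made up 74.8%, 76.7% and 69.4% of Grpel1 plus Grpel2 in CTL and 80.1%, 82.6% and 77.6% in knockout.

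In a further 2 pairs the first gene held a lower share in knockout. Tomm40 made up 66.9%, 57.8% and 61.8% of Tomm40 plus Tomm40l in CTL and 49.8%, 55.1% and 55.2% in knockout. Pmpca made up 40.2%, 42.3% and 46.2% of Pmpca plus Pmpcb in CTL and 36.9%, 38.1% and 38.5% in knockout. In these 6 of 9 pairs the groups do not overlap. How often pairs of other genes separate the groups was not counted. Among single genes, 7.2% lay wholly above CTL and 46.6% wholly below in TPM. Each of the 6 pairs has an exact permutation p of 0.1, the smallest that 3 against 3 libraries allow. After adjustment over the 9 pairs it is 0.15, so none can pass the threshold. The shares of Dnajc15 with Dnajc19, Timm8a1 with Timm8b and Tomm20 with Tomm20l overlapped between the groups. Because both genes of a pair come from the same library, a pair share can still move with the cell types in the tissue, which was not tested.

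**Figure D3:**
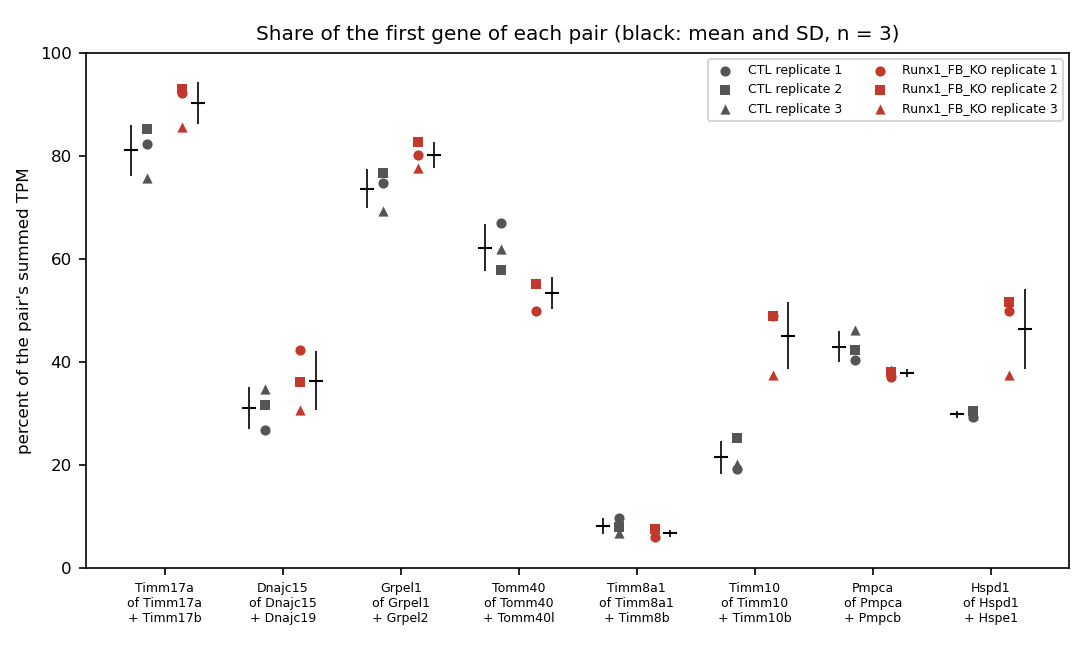
Share of the first gene in the summed TPM of 8 pairs, in percent, in each library (grey: CTL; red: Runx1_FB_KO; black: mean and SD, n = 3). Timm10 and Hspd1 show the widest gaps, with means of 21.4% against 45.1% and 29.7% against 46.3%; points at nearly the same value cover each other, and the pair of Tomm20 and Tomm20l is left out.

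Per transcript length, the members covered a wide range of levels in the CTL hearts. Hspe1 was the most abundant at a mean of 184.7 TPM, followed by Timm8b at 145.6, Tomm6 at 135.4, Timm23 at 126.5, Timm10b at 123.6 and Hspa9 at 120.5 TPM. From Timm8b to Hspa9, the CTL libraries of each gene overlap those of the next, so neighbours in this order cannot be ranked. Timm8b, at 154.3, 146.4 and 136.1 TPM in CTL, lay wholly above Hspa9, at 127.5, 121.3 and 112.7 TPM. The lowest tested members were Chchd4 at 6.74 TPM and Grpel2 at 6.19 TPM, whose libraries overlap as well. In the knockout libraries Hspa9 was at 208.6, 267.2 and 153.9 TPM in replicates 1, 2 and 3 and Hspe1 at 145.6, 168.5 and 197.1 TPM, so that Hspa9 was above Hspe1 in replicates 1 and 2 and below it in replicate 3.

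A list of 24 further genes for mitochondrial import and quality control had a median log2 fold change of 0.69 on the TMM scale. In this list 17 genes were higher and 1 lower at an unadjusted p under 0.05, where 19.3% of all genes were higher and 13.1% lower, and edgeR called 0. On deposited TPM this list had 12 positive and 12 negative log2 ratios, with a median of 0.0057, against -0.74 over all genes tested. On that scale 7 of its genes lay wholly above CTL and 8 wholly below, against 7.2% and 46.6% of all genes. Dnaja3, a J protein of the matrix, was at 35.8, 40.5 and 34.7 CPM in CTL and at 141.9, 170.5 and 69.3 CPM in knockout (log2 fold change 1.78, SE 0.33). Mipep, which trims imported proteins after the first cut, went from 12.9, 17.8 and 14.5 CPM to 72.8, 85.3 and 22.8 CPM (log2 fold change 1.998, SE 0.46). Oma1, a stress-activated protease of the inner membrane, went from 8.18, 9.91 and 8.50 CPM to 25.0, 32.6 and 15.4 CPM (log2 fold change 1.46, SE 0.29). The groups do not overlap for these 3 genes. Mtch1, an outer membrane protein that inserts other proteins, went the other way, from 304.4, 343.5 and 367.1 CPM to 152.6, 165.4 and 271.2 CPM (log2 fold change -0.78, SE 0.27).

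The import genes stood between other groups of mitochondrial and chaperone genes. Nuclear-encoded subunits of the respiratory chain had a median log2 fold change of 1.73 over 82 genes, and mitochondrial ribosomal proteins 0.87 over 78 genes. The cytosolic chaperones, with Hsp90 and the CCT ring, had a median of 0.19 over 16 genes, and the chaperones of the endoplasmic reticulum -0.22 over 12 genes. Single libraries did not all keep this order: in knockout replicate 3 the medians were 0.66 for respiratory subunits, 0.27 for the import genes, 0.22 for mitochondrial ribosomal proteins, 0.04 for chaperones of the endoplasmic reticulum and 0.03 for cytosolic chaperones. No test of these lists against each other was made.

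Genes of the mitochondrial stress response, which Atf4 and its relatives switch on when mitochondria fail, did not go along with the import chaperones. Over the 14 tested genes of 15 the median log2 fold change was -0.59, and edgeR called 0. At an unadjusted p under 0.05, 0 were higher and 6 lower, against 19.3% of all genes higher and 13.1% lower. Phgdh, the first enzyme of serine synthesis, was at 20.5, 20.8 and 28.9 CPM in CTL and at 2.36, 2.65 and 10.7 CPM in knockout (log2 fold change -2.14, SE 0.59). Mthfd2, an enzyme of the mitochondrial folate cycle, went from 18.9, 11.8 and 13.7 CPM to 3.34, 2.97 and 7.86 CPM (log2 fold change -1.63, SE 0.42). Asns, which makes asparagine, went from 13.7, 7.68 and 13.2 CPM to 4.12, 3.44 and 5.67 CPM (log2 fold change -1.38, SE 0.32). In these genes all knockout libraries lay below all CTL libraries. Pck2, Psat1 and Sesn2 were the other 3 that separated the groups downward, as 18.8% of all genes did. Atf4 and Atf5 overlapped between the groups (log2 fold changes -0.35 and -0.07), as did Trib3 (-0.27), Gdf15 (-0.22) and Chac1 (-0.0047). Ddit3 overlapped as well, with a log2 fold change of 0.43. With the cardiomyocyte marker level as a covariate the median of the list was 0.21. Without Runx1_FB_KO replicate 3, edgeR called 8 genes of the list lower and 1 higher, where it called 22.5% of all genes lower and 25.1% higher.

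**Figure D4:**
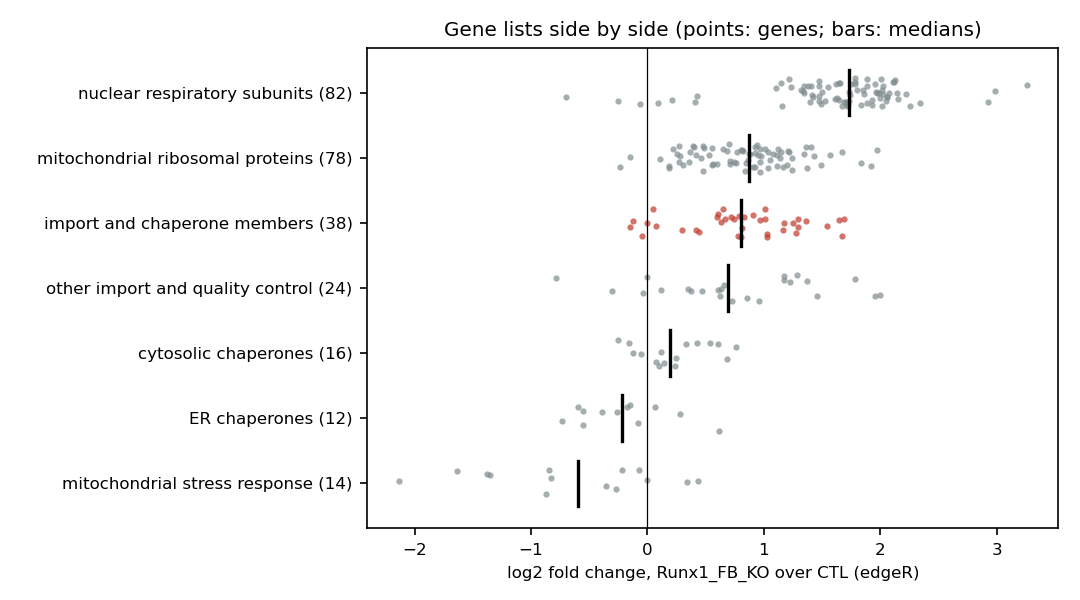
Log2 fold change of Runx1_FB_KO over CTL (TMM scale) for the tested genes of 7 lists; points are genes and black bars are medians. The import and chaperone members (red, median 0.81) lie below the respiratory subunits (1.73), near the mitochondrial ribosomal proteins (0.87) and above the cytosolic chaperones (0.19), the chaperones of the endoplasmic reticulum (-0.22) and the stress response genes (-0.59). With library size alone the member median was 0.29.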

How the data were processed

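Each of the 6 samples (3 CTL, 3 Runx1_FB_KO, grouped by the labels' genotype) has a transcript table with estimated counts, TPM and effective length, as the authors deposited them. The submitters' processing notes name Salmon 1.5.2, DESeq2 1.44.0 and the build GRCm38 (mm10); the annotation release is not given in the sources used here. Transcripts were matched to GENCODE M21; 115977 matched, and 569 (0.078% to 0.102% of reads) did not and were dropped. Estimated counts were added up per gene and rounded. Genes passing filterByExpr (14237) entered quasi-likelihood tests of genotype, with no covariate, in edgeR 4.0.16, with TMM factors of 0.732 to 1.214 and Benjamini-Hochberg adjustment over all genes (threshold 0.05). Tested members had 33 to 12125 reads per library, and no sample identifier beyond replicate number and sex shows that samples are separate mice, so p-values measure the spread between these samples. Pair shares used TPM with an exact permutation test (scipy 1.17.1). Near copies were found with BLAST+ 2.17.0 (at least 95% identity over 300 bases).

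The members and lists were chosen with earlier results of these data known. Named are, per role, the 3 members with the smallest p and the one with the largest, all pair genes, members opposite to the median and Runx1, and likewise the 3 smallest p of the further lists; other members, lists and genes that are named were chosen after their values were seen. Alternatives were sex or the cardiomyocyte marker level as a covariate, a replicate block, RLE, upper quartile or library size scaling, an effective length offset, other filters, DESeq2 1.42.0, limma-voom (limma 3.58.1), a threshold of 0.1, omission of each library, and, added after seeing the data, copies added to members and TPM for the group overlap. The edgeR fit was tested on simulated data.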

Additional observations from a re-analysis of the deposited data

How the results depend on the processing

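Apart from the cardiomyocyte covariate, no other fit changed the sign of more than 5 of the 38 member fold changes, but the number of calls varied. On deposited TPM, which was compared without a fit, 20 members were higher and 18 lower, against 2237 higher and 12000 lower among all genes tested. The count of called members was 0 with all libraries in edgeR, 24 with DESeq2, 10 without the filter on low counts and 23 at an adjusted p under 0.1, and ran from 0 to 31 when each library was left out, the highest without Runx1_FB_KO replicate 3. Over all genes tested, the shares called higher and lower were 14.8% and 5.17% with DESeq2, 4.21% and 0.193% without the filter, and 12.5% and 3.74% at the 0.1 threshold. For the further import and quality control genes the counts were 12, 4 and 10, and 0 to 20 with each library left out. For the stress response genes they were 5 with DESeq2, 5 at an adjusted p under 0.1 and 0 to 9 with each library left out. The median of the members was -0.20 with the cardiomyocyte covariate and 0.29 when library size was the sole scaling. The count of members whose groups do not overlap was 24 with TMM, all upward. In deposited TPM it was 15, with 12 upward and 3 downward, against 7.2% and 46.6% of all genes. Runx1 stood at 1.17 with the cardiomyocyte covariate, and between -2.61 and -1.07 when each library was left out. From estimated counts in place of TPM, the difference in pair share was 13.75 percentage points for Timm17a, 10.71 for Dnajc15 and -3.93 for Timm8a1.

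The replicate numbers did not pair the samples: same-numbered libraries had correlations of -0.051, 0.113 and 0.081, and not every sample correlated best with its own number. With the replicate block edgeR called 0 members, with a median of 0.77.

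With the cardiomyocyte covariate, 32 member fold changes changed sign: Chchd4 -0.12, Clpp -0.61, Dnajc15 -0.35, Dnajc19 -0.23, Grpel1 -0.15, Grpel2 -0.053, Hspa9 -0.49, Hspd1 -0.18, Hspe1 -0.051, Lonp1 -0.19, Pam16 -3.76, Pmpca -0.46, Pmpcb -0.12, Samm50 -0.62, Timm10b 0.013, Timm13 -0.097, Timm17a -0.20, Timm21 -0.20, Timm22 -0.094, Timm23 -0.34, Timm29 -0.69, Timm44 -0.22, Timm50 -0.28, Timm8a1 -0.71, Timm8b -0.17, Tomm20 -0.35, Tomm22 -0.37, Tomm40 -0.43, Tomm40l -0.22, Tomm5 -0.20, Tomm6 0.060, Tomm70a -0.13. The marker level does not overlap between the groups, and the cause was not tested. With library size alone the sign changed for Pam16 -0.31, Timm13 -0.43, Timm22 -0.078, Tomm20 -0.41, Tomm22 -0.064. With limma-voom the sign changed for Pam16 -0.13, Timm10b 0.0037. With DESeq2 the sign changed for Timm10b 0.031. With RLE scaling the sign changed for Timm10b 0.030. With the effective length offset the sign changed for Timm10b 0.055, Timm13 -0.15, Timm17b 0.064, Tomm20 -0.13. With the replicate block the sign changed for Timm10b 0.0055. With sex as a covariate the sign changed for Timm13 -0.042. With upper quartile scaling the sign changed for Timm13 -0.026, Tomm20 -0.0028. With each library left out in turn, the value ran from -0.24 to 0.90 for Pam16, from -0.091 to 0.11 for Timm10b, from -0.11 to 0.24 for Timm13, from -0.18 to 0.061 for Timm17b, from -0.057 to 0.20 for Tomm20.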

Other observations

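Among the chaperones of other compartments, some single genes separated the groups. The genes named here were picked after their values were seen. Of 12 chaperones of the endoplasmic reticulum, Hspa5, the Hsp70 of that compartment, was at 384.2, 332.1 and 330.9 CPM in CTL and at 548.1, 626.6 and 429.0 CPM in knockout (edgeR log2 fold change 0.61, SE 0.23, adjusted p = 0.127). Its partner Dnajb11 was at 84.6, 69.3 and 68.6 CPM in CTL and at 52.7, 53.1 and 63.8 CPM in knockout (log2 fold change -0.39, SE 0.16, adjusted p = 0.144). That is the direction of the list's median of -0.22. The groups of both genes do not overlap, in opposite directions. Canx also separates the groups upward (log2 fold change 0.28). In the list 2 genes separate the groups upward and 1 downward, against 20.2% and 18.8% of all genes tested. Of 16 cytosolic chaperones, 3 (18.75%) separate the groups, all upward, a share close to the 20.2% of all genes tested: Hsph1 (log2 fold change 0.76, SE 0.19), Hspa4 (0.69, SE 0.20) and Stip1 (0.61, SE 0.21). Hsph1 and Hspa4 are nucleotide exchange factors for Hsp70, and Stip1 links Hsp70 to Hsp90. With library size alone 12 of these 16 cytosolic genes had a negative fold change.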
